A study of Mus musculus with 6 samples.

Results

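The Fcγ receptors, their shared signaling chain, the kinase behind it and the neonatal Fc receptor were followed in bulk RNA of MCA205 tumors. The set was chosen by gene name and holds 7 genes (*Fcgr1*, *Fcgr3*, *Fcgr4*, *Fcgr2b*, *Fcer1g*, *Syk* and *Fcgrt*) of the 54309 gene identifiers in the table. Each of the 7 was among the 13963 genes with a mean normalized count of at least 10, so that none was lost to the filter on low values. MCA205 is a transplantable mouse fibrosarcoma line, and female C57BL/6J mice aged 7 weeks received the cells under the skin of the flank. The Control group (3 tumors) drank milliQ water, and the FF-10101 group (3 tumors) drank water with 0.1 mg/mL FF-10101, an inhibitor of CSF1R and FLT3, from day 1 to day 8, when the tumors were taken. No gene was altered in either group, and each tumor is a separate animal. The comparison asked whether the receptors that bind IgG differed in RNA level between treated and untreated tumors.

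Fcγ receptors are the molecules with which macrophages, monocytes, neutrophils and NK cells bind IgG, and through them antibody-coated cells are engulfed or killed. The activating receptors carry no signaling motif of their own. They signal through a small partner chain with an immunoreceptor tyrosine-based activation motif (ITAM), which Src family kinases phosphorylate and to which the kinase SYK then binds, while the inhibitory receptor carries its own inhibitory motif and recruits the phosphatase SHIP-1. Interferon-γ is known to raise the high-affinity receptor FcγRI and the receptor FcγRIV in mouse myeloid cells.

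The 4 receptor promoters are shown because letters known from interferon and myeloid control differ among them. Each window holds 250 bases before and 50 after the RefSeq gene start (GRCm38.p6, first listed start of each gene, printed 5′ to 3′ along the gene's own strand), and capitals mark matches to the motifs searched on both strands: GAS (TTCNNNGAA), ISRE (GAAANNGAAA) and the PU.1 core (GAGGAA, or TTCCTC on the other strand).
Fcgr1, chr3:96293920-96294219, minus strand: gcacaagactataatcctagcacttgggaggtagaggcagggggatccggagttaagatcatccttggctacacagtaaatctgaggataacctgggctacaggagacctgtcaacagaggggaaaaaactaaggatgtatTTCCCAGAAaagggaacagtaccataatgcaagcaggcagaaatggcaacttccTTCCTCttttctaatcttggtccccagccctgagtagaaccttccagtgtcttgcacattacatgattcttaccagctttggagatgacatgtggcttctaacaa
Fcgr4, chr1:171018676-171018975, plus strand: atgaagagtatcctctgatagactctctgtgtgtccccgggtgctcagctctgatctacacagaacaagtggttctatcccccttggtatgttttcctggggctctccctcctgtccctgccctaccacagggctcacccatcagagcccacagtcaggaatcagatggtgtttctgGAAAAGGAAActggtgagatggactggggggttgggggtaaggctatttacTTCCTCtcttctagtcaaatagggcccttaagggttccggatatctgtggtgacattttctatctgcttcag
Fcgr3, chr1:171059354-171059653, minus strand: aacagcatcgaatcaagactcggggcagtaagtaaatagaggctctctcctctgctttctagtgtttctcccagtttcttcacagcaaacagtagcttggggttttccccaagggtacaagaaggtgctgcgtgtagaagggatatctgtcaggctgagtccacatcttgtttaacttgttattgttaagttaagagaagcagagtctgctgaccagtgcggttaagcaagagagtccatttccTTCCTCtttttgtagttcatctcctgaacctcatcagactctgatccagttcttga
Fcgr2b, chr1:170976022-170976321, minus strand: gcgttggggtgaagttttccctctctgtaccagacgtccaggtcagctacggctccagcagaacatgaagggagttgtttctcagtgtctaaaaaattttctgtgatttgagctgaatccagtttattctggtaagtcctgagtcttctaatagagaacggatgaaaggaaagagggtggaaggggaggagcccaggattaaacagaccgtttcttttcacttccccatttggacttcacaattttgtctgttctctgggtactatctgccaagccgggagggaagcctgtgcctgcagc
The *Fcgr1* window holds the GAS letters from position −109 relative to the gene start and the PU.1 core from −55. The *Fcgr4* window holds the ISRE letters from −73 and the PU.1 core from −22, and the *Fcgr3* window the PU.1 core alone, from −6. None of the 3 motifs was matched in the *Fcgr2b* window, nor in those of *Fcer1g* and *Fcgrt*, and of the 2 *Syk* starts only the second had a match, to the PU.1 core. Of the 32851 promoters of the table, 8.3% hold the GAS, 3.44% the ISRE and 28.3% the PU.1 letters, and 2.38% hold GAS with PU.1 and 1.17% ISRE with PU.1. A match describes the letters of a window and not a bound site. No motif overlapped another in the printed windows. In the RefSeq annotation *Fcgr2b*, *Fcgr4* and *Fcgr3* are neighbors in this order on chromosome 1, with *Fcer1g* further along and 9 protein-coding genes between *Fcgr2b* and *Fcer1g*, these receptors included.

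Between 9143806 and 13258258 reads were recovered per tumor, and 459 to 6221 of them fell on a member, so counting error was small beside the spread between tumors. Normalized counts are reads scaled by the size factor of their tumor. Each value sums over all cells of the tumor, so that fewer cells of a type and less RNA per cell cannot be told apart. Control tumor 1 stood apart from the other controls. In 67.6% of all tested genes it lay nearer to the mean of the FF-10101–treated tumors than to that of Control tumors 2 and 3, and limma's array weights gave it the lowest weight of the 6, 0.139. It was the highest of the 6 tumors for 6 of the 7 members, against 20.4% of all tested genes. Member fold changes and list medians are therefore given with and without this tumor. At the other end, FF-10101 tumor 1 was the lowest for 4 of 7 members (*Fcgr3*, *Fcgr2b*, *Fcer1g* and *Fcgrt*), against 12.4% of all tested genes. Mesenchymal markers fitting the fibrosarcoma label were abundant in every tumor, with mean *Col3a1* counts of 57790 in the Control and 103169 in the FF-10101 group.

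With all 6 tumors, 0 of the 7 members passed an adjusted p of 0.05 (limma, Benjamini-Hochberg over all tested genes), where 0.0430% of all genes did. At an unadjusted p of 0.05 there were 0 members too, while 8.77% of all genes passed it as higher and 7.49% as lower. The 2 groups overlapped for each member, whereas they did not overlap for 10.9% of all genes as higher and 9.37% as lower in the treated tumors. Without Control tumor 1, 2 of 7 members passed as higher, *Fcgr4* and *Syk*, and 0 as lower, against 12.0% and 9.88% of all genes. The calls of *Fcgr4* and *Syk* thus depended on whether that tumor was included. Array weights, which gave Control tumor 2 and FF-10101 tumor 2 by far the highest weights (5.39 and 8.08, against 0.139 to 0.859 for the others), put 5 of 7 members past the threshold where 59.9% of all genes passed.

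**Figure D1:**
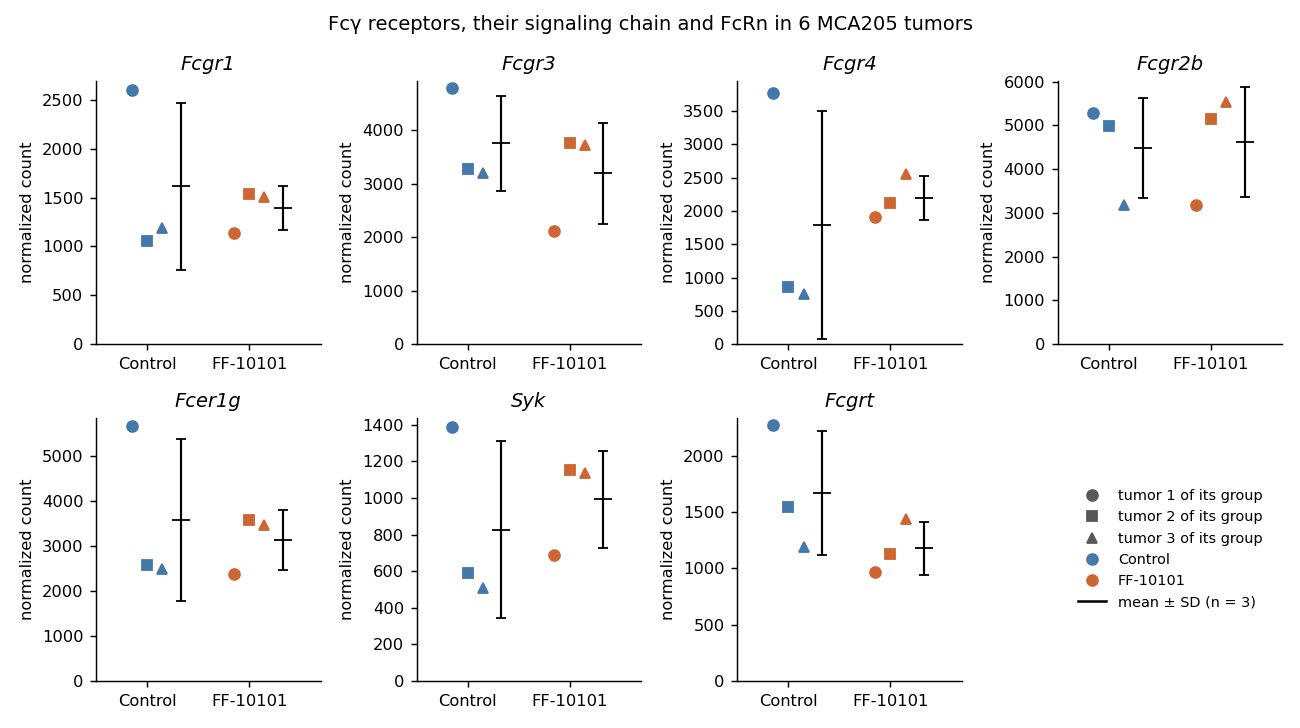
Normalized counts (vertical axes, linear, from 0) of the 7 members in 3 Control (blue) and 3 FF-10101 (orange) tumors, with symbols for tumors 1, 2 and 3 of each group and the mean ± SD beside them. Control tumor 1 (blue circle) is the highest point of each panel but *Fcgr2b*, and for *Fcgr4* the other Control tumors, at 862 and 753, lie under all FF-10101 tumors.

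*Fcgr4* encodes FcγRIV, an activating receptor of mouse monocytes, macrophages and neutrophils with intermediate affinity for IgG. Its normalized counts were 3768, 862 and 753 in Control tumors 1, 2 and 3 and 1906, 2123 and 2562 in FF-10101 tumors 1, 2 and 3. The treated tumors were close together and lay above 2 of the 3 controls, while Control tumor 1 exceeded them all, at 4.67 times the mean of the other controls. The group means were 1794 ± 1710 (SD, n = 3) and 2197 ± 334 (SD, n = 3), and the log2 fold change was 0.69 with a 95% confidence interval of −0.58 to 1.97 (limma adjusted p = 0.55). Without Control tumor 1 it was 1.44, with an interval of 1.07 to 1.80 (limma adjusted p = 0.00158), which is 2.70-fold.

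*Fcgr1* encodes FcγRI, the high-affinity activating receptor. It had 2600, 1051 and 1190 normalized counts in the Control tumors and 1136, 1538 and 1508 in the FF-10101–treated tumors. Aside from Control tumor 1 the values spanned a narrow range, and FF-10101 tumor 1 lay between Control tumors 2 and 3. The log2 fold change was −0.10 (95% confidence interval −0.87 to 0.67, limma adjusted p = 0.896) and turned to 0.30 (−0.083 to 0.69, adjusted p = 0.225) without Control tumor 1. Both intervals include 0.

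*Fcgr3* encodes FcγRIII, the low-affinity activating receptor, which NK cells carry as well as myeloid cells. Counts of 4784, 3274 and 3196 in the Control group stood against 2109, 3769 and 3718 in the FF-10101 group. The lowest and second-highest values were both from treated tumors. Its log2 fold change was −0.25 (95% confidence interval −0.88 to 0.37, limma adjusted p = 0.659), and −0.065 without Control tumor 1 (−0.63 to 0.50, adjusted p = 0.871). Without FF-10101 tumor 1 it was 0.023.

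*Fcgr2b* encodes FcγRIIB, the inhibitory receptor of myeloid cells and B cells. The counts were 5276, 4992 and 3187 in the Control tumors and 3186, 5149 and 5530 in the treated tumors, so that both groups covered nearly the same range. The log2 fold change was 0.037 (95% confidence interval −0.60 to 0.67, limma adjusted p = 0.956), and 0.17 without Control tumor 1 (−0.46 to 0.80, adjusted p = 0.677). *Fcgr2b* and *Fcgr3* share an identical run of 129 bases in their transcripts, and 17.7% of the 31-base words of the longest *Fcgr3* transcript also occur in *Fcgr2b*, so that part of their reads was assigned by estimation. No such word was shared by any other pair of the 4 receptors.

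*Fcer1g* encodes the common γ chain, which the activating receptors need for surface expression and signaling. In the Control tumors it had 5654, 2572 and 2487 normalized counts, and in the FF-10101–treated tumors 2365, 3565 and 3471. The treated values enclosed those of Control tumors 2 and 3. The log2 fold change was −0.10 (95% confidence interval −0.87 to 0.67, limma adjusted p = 0.895) with all tumors and 0.28 (−0.16 to 0.73, adjusted p = 0.314) without Control tumor 1.

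*Syk* encodes the kinase that docks on the phosphorylated ITAM. It measured 1386, 587 and 509 normalized counts in the Control tumors and 686, 1155 and 1138 in the treated tumors. All treated tumors exceeded Control tumors 2 and 3, as for *Fcgr4*, and none reached Control tumor 1. The log2 fold change was 0.37 (95% confidence interval −0.52 to 1.27, limma adjusted p = 0.648). Leaving out Control tumor 1 gave 0.82 (0.28 to 1.36, adjusted p = 0.0418), which is 1.77-fold.

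*Fcgrt* encodes the heavy chain of FcRn, the neonatal Fc receptor, which returns IgG from endosomes to the cell surface in endothelial and myeloid cells and does not signal. Its counts were 2272, 1542 and 1189 in the Control and 972, 1129 and 1436 in the FF-10101 group. It was the member with the lowest fold change, with 2 treated tumors under every control. The log2 fold change was −0.47 (95% confidence interval −1.06 to 0.13, limma adjusted p = 0.396), and −0.22 (−0.67 to 0.23, adjusted p = 0.449) without Control tumor 1. *B2m*, its light chain partner and also that of MHC class I, had a log2 fold change of 0.38 (limma adjusted p = 0.541). Without Control tumor 1 that of *B2m* was 0.59 (adjusted p = 0.102).

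**Figure D2:**
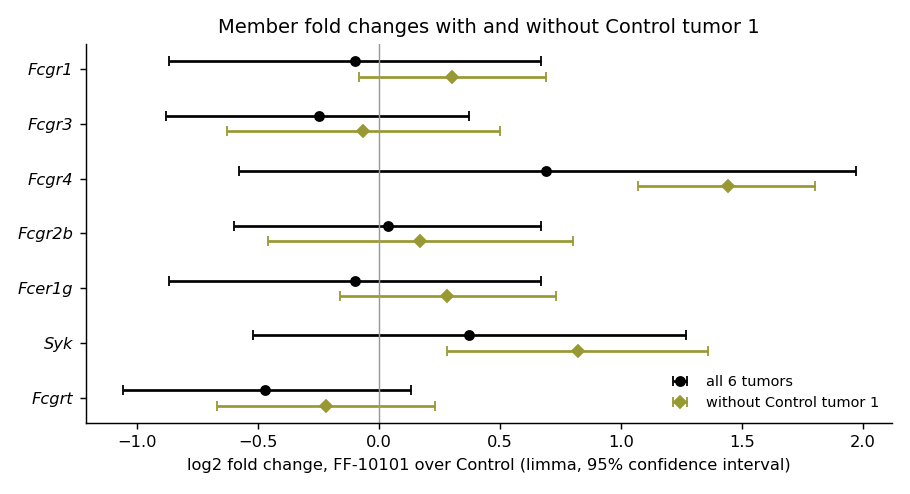
Log2 fold change of each member, FF-10101 over Control (horizontal axis), with its 95% confidence interval from limma, for all 6 tumors (black circles) and without Control tumor 1 (olive diamonds). Every black interval crosses 0, and without Control tumor 1 those of *Fcgr4* (1.07 to 1.80) and *Syk* (0.28 to 1.36) do not.

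Levels of different genes were compared per kilobase of the longest protein-coding transcript, as normalized counts per kb. *Fcer1g* was the most abundant member in both groups, at 5229 ± 2642 (SD, n = 3) in the Control and 4588 ± 978 (SD, n = 3) in the FF-10101 group, and *Syk* the least, at 154 ± 90.5 and 185 ± 49.6. *Fcgr3* followed *Fcer1g* at 2785 and 2375. *Fcgr4* came next, at 1428 ± 1361 in the Control and 1749 ± 266 in the FF-10101 group, before *Fcgr2b* (1266 and 1304), *Fcgrt* (942 and 666) and *Fcgr1* (623 and 539). In the Control tumors the ranges of neighbors in this order overlapped, other than those of *Fcer1g* and *Fcgr3* and of *Fcgr1* and *Syk*. In the treated tumors *Fcgr2b* and *Fcgrt* were separate as well. The place of *Fcgr2b* depends on its transcript, since with the median transcript length it moved to the second place in both groups, at 2951 and 3041.

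As shares of the 4 receptors per kb, *Fcgr4* made up 33.2%, 13.9% and 13.8% of the Control tumors and 34.3%, 25.9% and 29.4% of the FF-10101–treated tumors. *Fcgr3* moved the other way, with 39.3%, 49.3% and 54.8% against 35.4%, 42.8% and 39.8%. The mean differences were 9.55 and −8.45 percentage points, and the groups overlapped for both receptors. By an exact permutation test the two-sided p was 0.3 for both, or 0.6 after adjustment over 4 receptors, where 0.1 is the smallest p this design allows. *Fcgr1* held 8.23% to 11.1% in the Control and 8.39% to 9.93% in the FF-10101 group. *Fcgr2b* held 16.5% to 28.6% and 20.3% to 22.5%. Without Control tumor 1 the *Fcgr4* difference was 16 points, with treated tumors all above the 2 controls left.

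**Figure D3:**
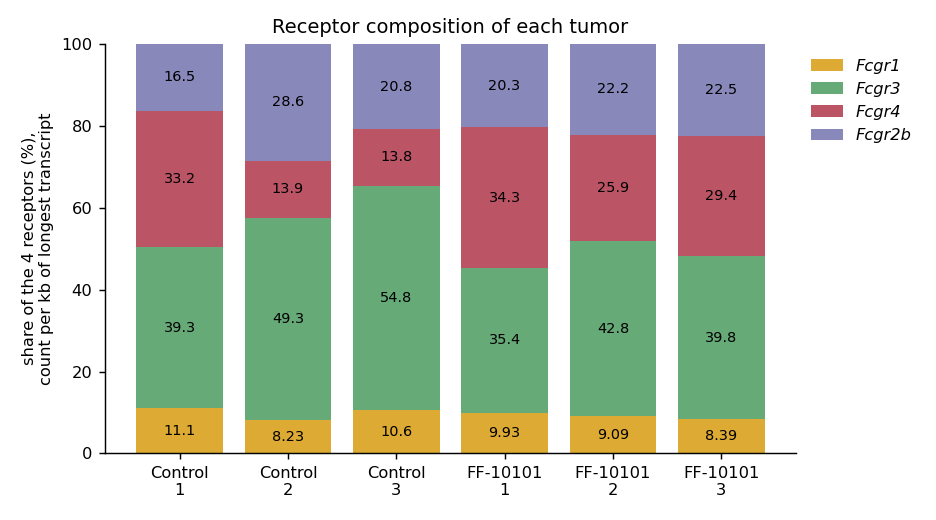
Share of *Fcgr1*, *Fcgr3*, *Fcgr4* and *Fcgr2b* (stacked bars, percent of normalized counts per kb of the longest transcript) in each of the 6 tumors. The *Fcgr4* segment is 13.9% and 13.8% in Control tumors 2 and 3 and 25.9% to 34.3% in Control tumor 1 and the FF-10101 tumors.

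Whether activating receptors gained on the inhibitory receptor was read from log2 ratios of normalized counts within each tumor. The ratio of *Fcgr1*, *Fcgr3* and *Fcgr4* summed to *Fcgr2b* was 1.08, 0.055 and 0.69 in the Control tumors and 0.69, 0.53 and 0.49 in the treated tumors. The controls spread on both sides of the treated tumors, and the mean difference was −0.036 (two-sided exact permutation p = 1.0). For *Fcgr4* to *Fcgr2b* the ratios were −0.49, −2.53 and −2.08 against −0.74, −1.28 and −1.11, a difference of 0.66 (two-sided exact permutation p = 0.4, or 0.8 adjusted over 4 ratios). That difference was 1.26 without Control tumor 1 and the groups did not overlap. *Fcgr3* to *Fcgr2b* differed by −0.29 (exact two-sided permutation p = 0.4) and *Fcgr1* to *Fcgr2b* by −0.14 (exact p = 0.8).

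Among all 21 pairs of members, a set of ratios added after the values were seen, the groups did not overlap in 6 pairs (28.6%), against 20.7% of all pairs of tested genes. Without Control tumor 1 it was 16 pairs of 21, against 54.9% of all pairs. With all tumors, the 6 pairs each held *Syk* or *Fcgrt*. *Syk* was higher relative to *Fcer1g* in each treated tumor: the log2 ratio of *Fcer1g* to *Syk* was 2.03, 2.13 and 2.29 in the Control and 1.78, 1.63 and 1.61 in the FF-10101 group, with Control tumor 1 on the side of its group. The mean difference was −0.48 (two-sided exact permutation p = 0.1, which is the lowest value possible, or 0.35 adjusted over 21 pairs) and −0.54 without Control tumor 1. *Fcgr1* to *Syk* differed by −0.47 and *Fcgr3* to *Syk* by −0.63, also without overlap. Relative to *Fcgrt*, *Fcgr4* was higher by 1.16, *Fcgr2b* by 0.50 and *Syk* by 0.84. The ratio of *Fcgr1* to *Fcer1g* differed by 0.0011 between the groups, with values from −1.29 to −1.06 over all 6 tumors.

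**Figure D4:**
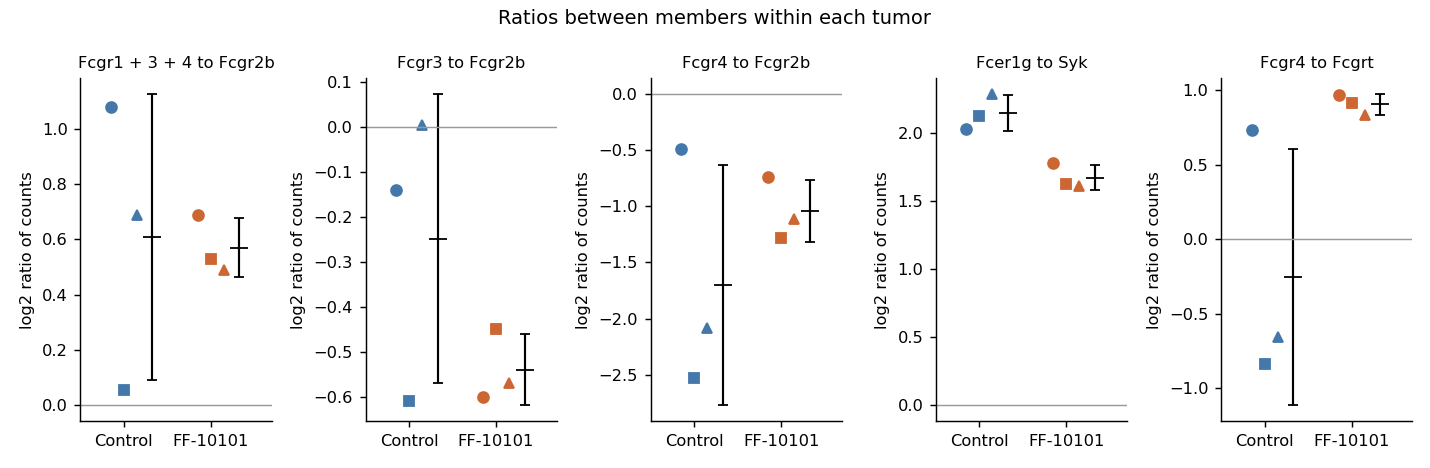
Log2 ratios of normalized counts between members within each tumor (vertical axes, each with its own range, grey line at 0) for 3 Control (blue) and 3 FF-10101 (orange) tumors, with the mean ± SD in black and circles, squares and triangles for tumors 1, 2 and 3. The groups overlap for the 3 ratios to *Fcgr2b* and separate for *Fcer1g* to *Syk* (2.03 to 2.29 against 1.61 to 1.78) and *Fcgr4* to *Fcgrt*.

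Macrophages are the main carriers of these receptors in many tumors, and the level of 12 macrophage markers was set beside them. The mean log2 level of the markers was 12.74, 11.94 and 11.81 in the Control tumors and 11.43, 12.01 and 12.07 in the treated tumors, highest in Control tumor 1 and lowest in FF-10101 tumor 1, as for *Fcgr3*, *Fcer1g* and *Fcgrt*. Their summed normalized counts ran from 87647 to 150552 in the Control and from 57189 to 92582 in the FF-10101 group. The markers were no fixed baseline, since 8 of 12 had a log2 fold change below 0 and 4 above. In limma 0 passed the adjusted and 5 the unadjusted threshold, all 5 as lower (7.49% of all genes), and 2 passed the adjusted one as higher and 2 as lower without Control tumor 1. *Lyz2*, the most abundant, had mean counts of 41003 in the Control and 20340 in the FF-10101 group. Subtracted from each member, the mean of the markers left *Syk* at −2.30, −2.74 and −2.82 in the Control and −2.01, −1.84 and −1.92 in the FF-10101 group. With the mean of the markers, this difference of 0.70 was the only one of the 7 without overlap (two-sided exact permutation p = 0.1, or 0.42 adjusted over 7 members), while 26.2% of all tested genes did not overlap on this scale. *Fcgr4* differed by 1.02, with Control tumor 1 at −0.86 inside the treated range of −0.96 to −0.54 (exact two-sided permutation p = 0.2, adjusted p = 0.42). The other members differed by −0.14 (*Fcgrt*) to 0.36 (*Fcgr2b*). Set against the median marker instead, *Fcgr1* (0.44), *Fcgr4* (1.24) and *Fcer1g* (0.44) also separated the groups, which makes 4 of 7 members against 38.2% of all genes. The same 4 separated the groups relative to the mean of the markers without Control tumor 1, against 37.2% of all genes.

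Markers of other cells that carry these genes are given as summed counts, and their part in the results was not tested. With all tumors 0 of them passed an adjusted p of 0.05 in limma. The unadjusted threshold was passed as higher by 2 of 7 tested monocyte, 4 of 7 neutrophil, 1 of 6 NK cell, 5 of 7 endothelial, 4 of 5 mast cell and 0 of 2 B cell markers, against 8.77% of all genes, and as lower by 1 monocyte marker, against 7.49%. When Control tumor 1 was left out, the adjusted threshold was passed as higher by 4 monocyte, 5 neutrophil, 5 NK cell, 7 endothelial, 4 mast cell and 0 B cell markers, against 12.0% of all genes, and as lower by 1 monocyte marker, against 9.88%. Summed counts of 7 monocyte markers were 5719 to 11333 in the Control and 7593 to 13409 in the FF-10101 group. For 9 neutrophil markers the sums were 1927 to 2280 against 2778 to 3228, with *Ly6g* and *Camp* at or under 3 reads in every tumor. The 6 NK cell markers, of cells that use *Fcgr3* and *Fcer1g*, summed to 483 to 1655 against 995 to 1899. Endothelial cells carry *Fcgrt*, and their 7 markers summed to 1816 to 5781 in the Control and 5585 to 6118 in the FF-10101 group, each with a log2 fold change above 0 while that of *Fcgrt* was −0.47. Mast cells use *Fcer1g* with the IgE receptor, and their 6 markers summed to 227 to 411 against 497 to 1233. B cell markers were low, at 92.1 to 199 against 105 to 252 over 6 genes, with *Pax5* at or under 3 reads throughout. The 6 conventional dendritic cell markers summed to 390 to 1283 against 766 to 839. Of these, 0 passed the unadjusted threshold with all tumors. Without Control tumor 1, 3 passed the adjusted one as higher, against 12.0% of all genes.

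On the ligand side, IgG heavy chain RNA was near the detection limit in 5 of 6 tumors. *Ighg2b* had 1.13, 2.17 and 0 normalized counts in the Control tumors and 1.53, 1.09 and 69.3 in the FF-10101–treated tumors, where 3 reads correspond to 2.29 to 3.38. FF-10101 tumor 3 alone was above that limit, and the same tumor had the highest counts of *Igha* (422), *Igkc* (328) and *Jchain* (191), with plasma cell markers summing to 535 against 36.7 to 96.8 in the other tumors. *Igha* ranged from 14.5 to 70.9 in those others. *Ighm*, the IgM heavy chain, was at 205 to 559 in the Control and 228 to 377 in the FF-10101 group. In limma 0 of the 5 immunoglobulin genes tested passed an unadjusted p of 0.05 (these genes were named after their values were seen). Their median log2 fold change was 0.79, and 1.17 without Control tumor 1. IgG in a tumor can also come from blood, which RNA does not show.

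Genes around the receptors were counted in 10 lists with 124 genes, of which 104 were tested. With all tumors 0 passed an adjusted p of 0.05 in limma, and 26 passed the unadjusted one, which 8.77% of all genes passed as higher and 7.49% as lower. When Control tumor 1 was left out, 38 passed as higher and 7 as lower, against 12.0% and 9.88% of all genes. The median log2 fold change of all tested genes was 0.02 with all tumors and 0.036 without Control tumor 1.

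Other receptors that pair with the γ chain had a median log2 fold change of 0.96 over 6 tested genes, all above 0, and of 1.45 without Control tumor 1. *Clec4e* encodes Mincle, a receptor for microbial glycolipids that signals through the γ chain and SYK. It was at 258, 94.5 and 138 in the Control and 289, 443 and 461 in the FF-10101 group. The groups did not overlap, and the log2 fold change was 1.37 (limma unadjusted p = 0.00599, adjusted p = 0.229), and 1.76 without Control tumor 1 (adjusted p = 0.00459). Leaving that tumor out, 4 of the 6 passed as higher (*Clec4e*, *Clec4d*, *Ncr1* and *Klrb1c*), against 12.0% of all genes. *Pira2* belongs to a family of near-identical genes, so its counts are uncertain.

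Of 10 genes of other ITAM adaptors and hemITAM receptors, the median was 0.36 (0.85 without Control tumor 1). A single gene passed the unadjusted threshold, as higher, against 8.77% of all genes. Without that tumor *Clec7a*, *Clec9a* and *Zap70* passed the adjusted one as higher, against 12.0% of all genes. The unadjusted call was *Clec7a*, named after its values were seen, which encodes the β-glucan receptor Dectin-1 and recruits SYK through its own tail. It measured 3039, 1867 and 1156 in the Control and 2632, 6040 and 5639 in the FF-10101 group, and its log2 fold change was 1.26 (limma adjusted p = 0.243, and 0.0188 without Control tumor 1). *Tyrobp*, the adaptor DAP12, which serves other myeloid receptors as the γ chain serves Fc receptors, had a log2 fold change of −0.37 (adjusted p = 0.514). Without Control tumor 1 that of *Tyrobp* was −0.18 (limma adjusted p = 0.632). The Src family kinases, which start the signal, had a median of 0.25 over 7 genes (0.52 without Control tumor 1). *Lyn* was at −0.056, which turned to 0.25 without Control tumor 1 (limma adjusted p = 0.343). Without that tumor 4 of the 7 passed as higher, *Fgr*, *Fyn* and *Lck* among them, against 12.0% of all genes.

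Downstream, the 21 activating signaling genes had a median of 0.049, with 2 genes higher (*Pik3r1* and *Malt1*) and 3 lower (*Blnk*, *Lat2* and *Card9*) at an unadjusted p of 0.05, against 8.77% and 7.49% of all genes. Without Control tumor 1 the median was 0.31, and 5 passed as higher (*Lcp2*, *Grb2*, *Pik3r1*, *Vav1* and *Malt1*) and 2 as lower (*Blnk* and *Lat2*). *Blnk*, a SYK substrate and adaptor, was at 265, 137 and 150 in the Control and 58, 72.7 and 73.8 in the FF-10101 group, and its log2 fold change was −1.36 (limma adjusted p = 0.229, and 0.0151 without Control tumor 1). *Malt1*, which links SYK and CARD9 to NF-κB, was at 314, 216 and 166 against 338, 477 and 417, a log2 fold change of 0.85 (adjusted p = 0.23, and 0.0101 without Control tumor 1). These 2 genes separated the groups in opposite directions.

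The inhibitory signaling list had a median of −0.047 over 12 genes, which turned to 0.21 without Control tumor 1. Then 3 genes passed as higher, *Ptpn6* and *Cblb* among them, against 12.0% of all genes. *Dok1* and *Dok2* passed as lower, against 9.88%. The 3 unadjusted calls of the list, all lower, against 7.49% of all genes, were those of the DOK adaptors, which dampen receptor signals. *Dok2* was at 767, 737 and 663 in the Control and 382, 376 and 418 in the FF-10101 group, with tight groups and a log2 fold change of −0.88 (limma unadjusted p = 0.000299, adjusted p = 0.175). Its value without Control tumor 1 was −0.84 (adjusted p = 0.00738). *Dok3* had a log2 fold change of −0.71 (adjusted p = 0.249), and of −0.52 without Control tumor 1 (limma adjusted p = 0.118). *Dok1*, named after its values were seen, had −0.54 (adjusted p = 0.259), and −0.70 without that tumor (adjusted p = 0.0207). *Inpp5d*, which encodes SHIP-1, the phosphatase that FcγRIIB recruits, had −0.18 (adjusted p = 0.813). Its value turned to 0.23 without Control tumor 1 (limma adjusted p = 0.368).

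Phagocytic actin genes had a median of −0.18 over 16 genes. At an unadjusted p of 0.05, 0 passed as higher and 3 as lower (*Arpc1b*, *Limk1* and *Cfl1*), against 8.77% and 7.49% of all genes. The median turned to 0.14 when Control tumor 1 was left out. Then *Rac2* passed as higher (0.69, limma adjusted p = 0.0224) and *Arpc1b* and *Limk1* as lower, against 12.0% and 9.88% of all genes. *Arpc1b*, a subunit of the Arp2/3 complex that branches actin, was at 8857, 10576 and 11585 in the Control and 6727, 7477 and 7281 in the FF-10101 group (log2 fold change −0.52, limma adjusted p = 0.239, and 0.0151 without Control tumor 1). *Cfl1*, the actin-severing protein cofilin, had a log2 fold change of −0.45 with all tumors (limma adjusted p = 0.259). Without Control tumor 1 it was −0.45 as well (adjusted p = 0.0568). The 5 NADPH oxidase genes, which make the oxidative burst after engulfment, had a median of −0.23 with 0 unadjusted calls. It turned to 0.15 without Control tumor 1, when *Cybb* passed as higher (1.06, adjusted p = 0.0273). Actin genes are used by every cell of the tumor, not by phagocytes alone.

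The interferon-γ–induced genes were the list with the highest median, 1.17 over 16 genes, all above 0. The unadjusted threshold was passed by 10 of them as higher, against 8.77% of all genes, and the adjusted one by all 16 when Control tumor 1 was left out, against 12.0%. *Iigp1*, a GTPase that acts on vacuoles of intracellular parasites, was at 9493, 2474 and 1785 in the Control and 13854, 15409 and 19440 in the FF-10101 group, and its log2 fold change was 2.21 (limma adjusted p = 0.229) and 2.93 without Control tumor 1 (adjusted p = 0.00026). *Ido1*, which degrades tryptophan, had 2.13 (adjusted p = 0.245) and 2.93 without that tumor (adjusted p = 0.00662). The fold change of *Fcgr4*, 0.69 and without Control tumor 1 1.44, lay under both of these list medians, 1.17 and 1.81, and those of *Fcgr1*, −0.10 and 0.30, under those of every gene of the list in the same fits.

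Other Fc receptors and their partners, 14 genes with 6 tested, had a median log2 fold change of 0.051, and of 0.16 without Control tumor 1. Among them, 2 named genes fell on opposite sides. *Fcrls*, an Fc receptor-like scavenger receptor gene, was at 630, 2685 and 3025 in the Control and 100, 40.2 and 49.8 in the FF-10101 group, and its log2 fold change was −4.86 (limma adjusted p = 0.0813). It passed without Control tumor 1 (−5.58, adjusted p = 0.000179). *Fcer1a*, the IgE-binding chain of mast cells and basophils, was at 6.75, 9.78 and 9.98 against 13.7, 27.1 and 57.8, a log2 fold change of 1.58 (adjusted p = 0.26). Without Control tumor 1 that fold change was 1.41 (limma adjusted p = 0.126). *Trim21*, the cytosolic Fc receptor that sends antibody-bound particles to the proteasome, was named after its values were seen. It was at 307, 175 and 129 against 341, 357 and 383, and its log2 fold change was 0.91 (adjusted p = 0.243, and 0.00463 without Control tumor 1).

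**Figure D5:**
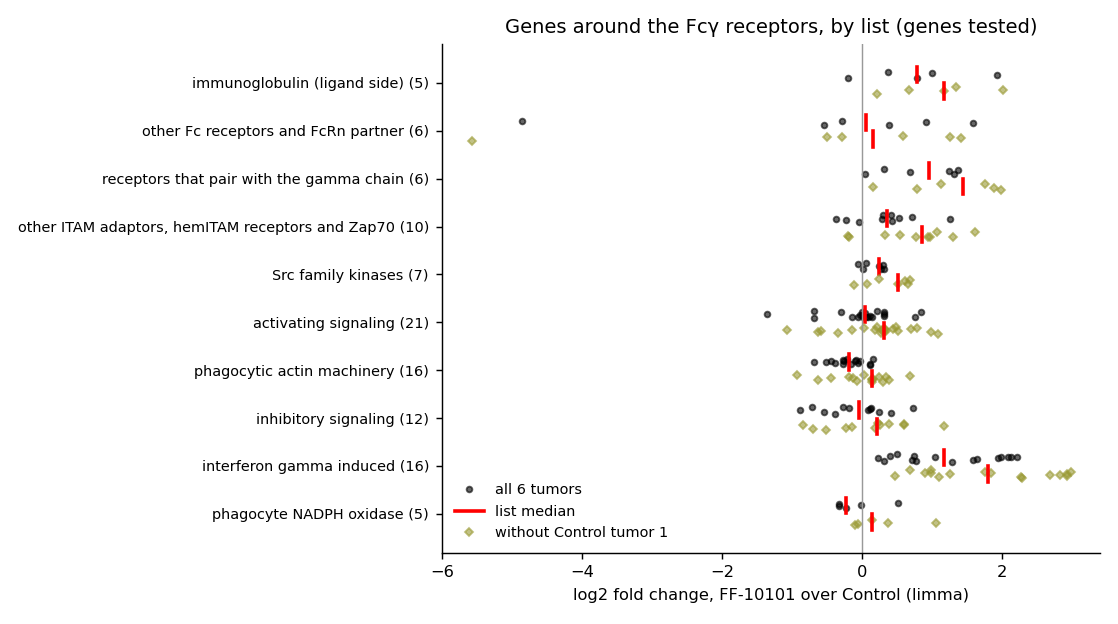
Log2 fold change, FF-10101 over Control (horizontal axis), of each tested gene in 10 lists of genes around the Fcγ receptors, for all 6 tumors (black circles) and without Control tumor 1 (olive diamonds), with the list median as a red bar and the number of tested genes in parentheses. The interferon-γ–induced genes lie above 0 throughout, with medians of 1.17 and 1.81, and *Fcrls* is the point at −4.86.

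Across the 6 tumors the members followed one another unevenly, and these correlations are descriptions over points that share libraries and Control tumor 1. *Fcgr1* and *Fcer1g* had a Pearson r of 0.981 on the log2 scale and *Fcgr4* and *Syk* of 0.932, whereas it was 0.398 for *Fcgr4* and *Fcgrt* and 0.413 for *Fcgr4* and *Fcgr3*. The tested genes most like each member were sought by the same measure. For *Syk* the closest was *Cybb*, the NADPH oxidase subunit gp91phox (r = 0.998, rho = 1, and r = 0.997 without the 2 tumors farthest from the *Syk* median). For *Fcgr3* it was the monocyte chemokine receptor gene *Ccr2* (r = 0.992, rho = 0.943, and 0.888 without the 2 farthest). *Fcgr4* was closest to *Ubl7* (r = 0.999), *Fcgr1* to *Lfng* (0.994), *Fcgr2b* to *Atp7a* (0.991, and 0.63 without the 2 farthest), *Fcer1g* to *AB124611* (0.9998) and *Fcgrt* to *Ubash3b* (0.991). With 6 tumors and 13963 genes to choose from, values this high describe the order of the tumors.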

How the data were processed

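Bulk RNA of 3 Control and 3 FF-10101 MCA205 tumors was analysed, grouped by treatment label. The authors trimmed reads with fastp (0.19.5), quantified them with Salmon (1.5.1) on GENCODE vM27 and used DESeq2 (1.22.1), versions as in the submitters' processing notes. The authors deposited log2 values that have the form of a variance-stabilizing transformation. Inverted, 100% of 325854 values were whole reads (tolerance 0.001 read), which were scaled by size factors. The unit had been planned for as normalized counts. Identifiers were named from GENCODE vM21, matching 51484 of 54309. Groups were compared with limma (3.58.1, R 4.3.3, trend) on log2(normalized count + 1), which understates changes of low genes, over 13963 genes whose mean reached 10, with p values adjusted after Benjamini and Hochberg. Exact permutation tests, two-sided, were used for within-tumor ratios and shares. The steps were tested on simulated data. Transcript lengths and shared bases came from vM21 and promoters from RefSeq (GRCm38.p6), all 7 members matched. Members and lists were chosen with earlier results of these data known. Named genes were the members, per list each gene past an adjusted p of 0.05 and the 2 largest changes among tested genes whose groups do not overlap, and the 3 genes most correlated with each member, of which the closest is printed. Alternatives were other pseudocounts, filters, scalings, weights, the deposited values, limma-voom, a replicate block and each tumor left out. Counts of 3 reads are taken as the floor, for counting error only. The values of some genes are not reported here.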

Additional observations from a re-analysis of the deposited data

How the results depend on the processing

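With Control tumor 1 left out or with array weights, calls changed. Array weights gave 5 of 7 members past the threshold, while 59.9% of all genes passed: *Fcgr4* 1.28, *Syk* 0.93 and *Fcgrt* −0.41, and, with the direction turned, *Fcgr1* 0.48 and *Fcer1g* 0.42, with *Fcgr3* turned to 0.16 without passing. The pathway lists then held 58 higher and 12 lower genes, and the fit without a minimum count held 1 lower. Leaving out each tumor in turn, the members past the threshold were 0 to 2, the higher list genes 0 to 38 and the lower 0 to 7, the upper ends without Control tumor 1. Over the same fits the log2 fold changes were 0.27 to 1.44 for *Fcgr4*, 0.10 to 0.82 for *Syk*, −0.68 to −0.22 for *Fcgrt*, −0.35 to 0.30 for *Fcgr1*, −0.31 to 0.28 for *Fcer1g*, −0.40 to 0.023 for *Fcgr3* and −0.19 to 0.29 for *Fcgr2b*, the last 4 changing sign. The ratio differences were −0.48 to 0.13 (*Fcgr1* to *Fcgr2b*), −0.31 to 0.20 (activating sum to *Fcgr2b*), −0.47 to −0.16 (*Fcgr3* to *Fcgr2b*) and 0.24 to 1.26 (*Fcgr4* to *Fcgr2b*). The *Fcgr3* share difference was −12.7 to −4.95 points and that of *Fcgr4* 6.31 to 16. The *Fcgr2b* share moved between −2.98 and 3.07 points, was 0.411 without division by length and 0.0388 with the median transcript length. Relative to macrophage markers, *Fcgr3* ranged from −0.029 to 0.14, and *Fcgrt* was 0.078 against the median marker. Pseudocounts, the stricter minimum, both scalings, no trend, the deposited values and limma-voom changed no call or direction of a member. The cause was not tested.

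The replicate numbers do not pair the tumors: same-numbered tumors deviated from their group means with correlations of −0.29, −0.04 and −0.28. With a replicate block, which cannot alter a mean difference in this balanced design (*Fcgr4* 0.69), 0 members passed.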

Other observations

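Of the other genes around the Fcγ receptor cluster on chromosome 1, 3 are described here. *Sdhc*, a subunit of succinate dehydrogenase that lies between *Fcgr3* and *Fcer1g*, was at 1564, 1063 and 1326 normalized counts in the Control and 1443, 1323 and 1290 in the FF-10101 group (log2 fold change 0.05, limma adjusted p = 0.893). Without Control tumor 1 that fold change was 0.19 (adjusted p = 0.384). *Tomm40l*, a mitochondrial import channel gene next to *Fcer1g* apart from *Apoa2*, was at 453, 555 and 771 against 378, 389 and 347, with no overlap and a log2 fold change of −0.64 (adjusted p = 0.243, and 0.0163 without Control tumor 1). *Fcrla*, on the far side of *Fcgr2b*, was at 12.2 to 24.9 in all 6 tumors. These 3 genes were chosen for their place, and their values are descriptions.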
